A study of Mus musculus with 6 samples.

Results

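The keratins described here are those typical of stratified mucosa and of simple or glandular epithelium, Krt4, Krt13, Krt19, Krt7, Krt8, Krt18, Krt20 and Krt23. These 8 genes were taken by gene ID or gene name from the 18096 genes named on the array, and 12 of its 45101 probe sets report them. Affymetrix arrays, 3 for each genotype, compared Spdef +/+ with Spdef -/- mice to learn whether loss of Spdef, an ETS transcription factor known from mucous cells, alters gene expression in conjunctival epithelium. Both genotypes were on a C57BL/6 background and 8 weeks old, and no treatment is recorded. Each array held RNA of epithelium cut by laser from the part of the conjunctiva nearest the fornix, with 1 eye each of a male and a female animal pooled. The sources used here do not say how the Spdef allele was made or whether the gene is lost in all tissues. In such bulk RNA, fewer cells of a type and less RNA per cell cannot be told apart.

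Keratins are the intermediate filament proteins of epithelial cells. A filament is built from pairs of 1 acidic type I and 1 basic type II keratin, and an unpaired keratin is degraded, so the pairs a cell makes mark its kind. Krt4 (type II) and Krt13 (type I) pair in the upper layers of non-cornified stratified mucosa. Krt8 (type II) and Krt18 (type I) pair in simple and glandular epithelia, where Krt7 (type II) and Krt19 (type I) are also made. Conjunctiva is a stratified mucosa with goblet cells among its surface layers, and both kinds of keratin are known from it. Krt20 is a type I keratin of intestinal and bladder surface cells and of Merkel cells, and Krt23 a type I keratin of several glandular epithelia.

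The targeted Spdef read 801, 689 and 587 in Spdef +/+, against 1, 3.62 and 2.94 with Absent calls throughout in Spdef -/-. Signals are linear dChip units, and the brightest probe set on each array lay between 21627 and 22844. Between 23290 and 24833 probe sets were called Present per array, fewer in Spdef -/-. The mean log2 ratio of 3' to 5' signal of the Gapdh and beta-actin controls, a measure of RNA integrity, was 1.62 ± 0.20 (SD, n = 3) in Spdef +/+ and 1.51 ± 0.25 (SD, n = 3) in Spdef -/-, a difference with p = 0.5 in a two-sided exact permutation test. The array of Spdef -/- replicate 3 stood apart in the Y-linked Eif2s3y, at 57.9 against 301 to 566 on the other arrays. Krt12, the keratin of corneal epithelium, was Present on all 6 arrays and uneven within genotypes, from 1006 to 5367 in Spdef +/+ and from 431 to 1478 in Spdef -/-.

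The mucosal keratins Krt13 and Krt4 rose in Spdef -/-, by 2.08-fold and 1.38-fold, and the glandular keratin Krt18 fell 2.996-fold. Krt23 rose 1.88-fold and Krt19 1.27-fold, Krt8 and Krt7 did not pass the test, and Krt20 was Absent on all 6 arrays. Of the 7 genes that could be tested, 4 rose and 1 fell (limma, adjusted p under 0.05 over 11899 genes). That is 71.4% of those tested, against 39.7% called among the genes tested in all, 15.8% higher and 24.0% lower. The median log2 difference of the 7, Spdef -/- minus Spdef +/+, was 0.35, against -0.06 over the tested genes. The groups did not overlap in 6 of the 7, 4 of them higher and 2 lower, against 55.3% of tested genes (22.6% higher and 32.7% lower).

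**Figure D1:**
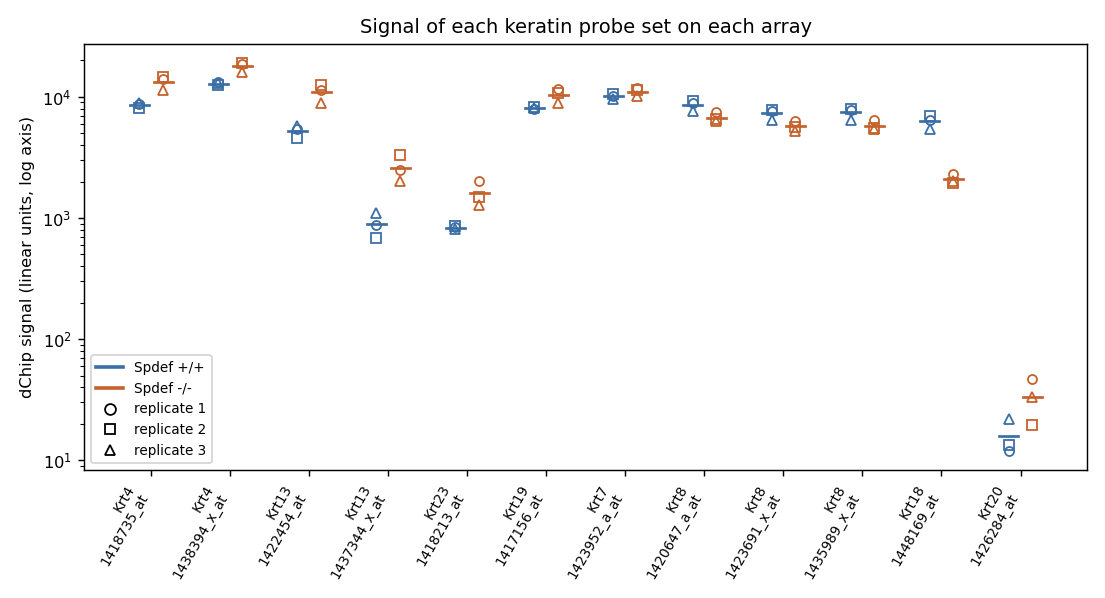
dChip signal (log axis) of each of the 12 probe sets on each array. Blue marks Spdef +/+, orange marks Spdef -/-, the symbol marks the replicate number and the bar is the mean of 3 arrays. The orange points lie above the blue for Krt4, Krt13, Krt23 and Krt19 and below them for Krt8 and Krt18, while Krt7 and Krt20 overlap.

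Krt13 was measured by 2 probe sets. On the brighter the Spdef +/+ replicates 1, 2 and 3 read 5421, 4533 and 5782, and the Spdef -/- replicates 11397.5, 12608 and 8902. The lowest Spdef -/- array thus lay above the highest Spdef +/+ array. The log2 difference was 1.06 ± 0.16 (SE, n = 3 per genotype, adjusted p = 0.00332), with a 95% interval of the fold from 1.601 to 2.70. Of the 11899 tested genes, 478 rose more. The dimmer probe set has no gene ID in the deposited table and was placed with Krt13 by its gene name. It read 879, 686 and 1109 in Spdef +/+ and 2502, 3283 and 2013 in Spdef -/-, again without overlap. In a fit over 24533 probe sets with or without a symbol, 32.3% of which were called, its fold was 2.91 (adjusted p = 0.00461).

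Krt4, the type II partner of Krt13, also had 2 probe sets. The brighter read 13172, 12447 and 13040.2 in Spdef +/+ and 18538, 18911 and 16110.4 in Spdef -/-. All Spdef -/- arrays were above all Spdef +/+ arrays, and the log2 difference was 0.47 ± 0.09 (SE, adjusted p = 0.00813). The dimmer read 8691, 8125 and 8887 in Spdef +/+ and 14080.5, 14526 and 11293 in Spdef -/-, a fold of 1.54 (adjusted p = 0.00931 over 21727 probe sets, 33.5% of them called). For both Krt4 and Krt13 the brighter probe set gave the smaller fold. Among genes with 2 or more probe sets called in the same direction, the brightest called probe set changed less than the dimmest called one in 29 of 35 genes whose brightest mean signal was at least 5000 (82.9%). The same held for 370 of 608 genes between 500 and 5000 (60.9%) and for 322 of 606 below 500 (53.1%). Krt4 meets the rule of the first count itself. Only called probe sets enter, and a noisier one needs a larger change to be called, so these counts cannot separate signal from selection. Whether bright signals compress these folds was not tested.

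Krt23 stood lowest in signal of the 7 tested keratins, though signals of different probe sets do not rank transcripts. It read 838, 859 and 805 in Spdef +/+ and 2004, 1501 and 1278 in Spdef -/-. The Spdef +/+ arrays lay within a narrow band, and the Spdef -/- arrays spread widely above it, with replicate 1 highest. The log2 difference was 0.91 ± 0.16 (SE, adjusted p = 0.00651), and 575 tested genes rose more.

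Krt19, a type I keratin of simple epithelia and of several stratified ones, read 7934, 8272 and 8102 in Spdef +/+ and 11517, 10671 and 8879 in Spdef -/-. The groups did not overlap, but replicate 3 of Spdef -/- came within reach of the Spdef +/+ arrays. The log2 difference of 0.35 ± 0.11 (SE) had an adjusted p = 0.0469. That call was lost without Spdef +/+ replicate 1 (adjusted p = 0.132), 2 (0.099) or 3 (0.103) and without Spdef -/- replicate 1 (0.125) or 2 (0.119), and it held without Spdef -/- replicate 3 (0.00914). Over probe sets taken singly Krt19 was not called either (adjusted p = 0.0598).

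Krt7, a type II keratin of ducts and glands, read 10218, 10586 and 9678 in Spdef +/+ and 11755, 11333 and 10115 in Spdef -/-. The genotypes overlapped. The ratio of Spdef -/- to Spdef +/+ was 1.09, with a 95% interval from 0.938 to 1.26 (adjusted p = 0.316), and the interval includes 1.

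Krt18, the type I keratin of simple and glandular epithelia, read 6487, 6889 and 5436 in Spdef +/+ and 2309, 1949.9 and 2007 in Spdef -/-. No Spdef -/- array came near the lowest Spdef +/+ array. The log2 difference was -1.58 ± 0.12 (SE, adjusted p = 0.000374), with a 95% interval of the fold from 2.45 to 3.66, and 223 of the tested genes fell more. Transcripts of goblet cells moved with it. Of 14 goblet cell markers on the array 11 were tested, and 10 of these fell and none rose. Among all tested genes 24.0% were called lower and 15.8% higher. The summed signal of the 14 was 35767 to 43057 on the Spdef +/+ arrays and 3226 to 4969 on the Spdef -/- arrays. The gel-forming mucin gene Muc5ac, the defining marker, went from 16558 ± 848 to 14.5 ± 7.86 (SD, n = 3) and was Absent on all Spdef -/- arrays, as were Spdef, Muc5b, Foxa3, Gcnt3 and Ern2. Muc5ac and these other genes were tested only through their Present calls in Spdef +/+, so their fall was nearly fixed by the filter. Creb3l1, Present on 1 Spdef -/- array, also met the filter only through Spdef +/+, and Spdef is the targeted gene itself. Most of the 10 that fell are thus no free test. The rest, Tff1 (36.3-fold), Agr2 (3.30-fold) and Fcgbp (2.10-fold), were Present on all arrays. Whether fewer goblet cells or less RNA per goblet cell had a part in the fall of Krt18 was not tested. Krt18 was Present on the 3 arrays on which Muc5ac was Absent.

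Krt8, the type II partner of Krt18, was read by 3 probe sets. The only one with the Krt8 gene ID alone read 7604, 7800.4 and 6495 in Spdef +/+ and 6371, 5633 and 5243 in Spdef -/-. The Spdef -/- arrays were lower without overlap, but by little more than the spread within a genotype. The log2 difference of -0.34 ± 0.11 (SE) missed the threshold (adjusted p = 0.0505), while the unadjusted 95% interval of the ratio ran from 0.653 to 0.9501. Krt8 was called at an adjusted p = 0.0371 with Spdef +/+ replicate 3 left out, and at 0.0447 with Spdef -/- replicate 1 left out. A probe set annotated with Krt8 and with Krt8-like sequences gave a fold of 1.28 downward, and so did one annotated as similar to keratin 8. Neither passed (adjusted p = 0.0616 and 0.0691 over probe sets with or without a symbol). The 3 may share target sequence, so their likeness is no independent evidence, and Krt8 cannot be told apart from its near-identical copies by them.

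On the probe sets that represented the genes, the partners within each pair changed unequally. The per-array difference of log2 signal, Krt18 minus Krt8, was -0.22 ± 0.04 (SD, n = 3) in Spdef +/+ and -1.46 ± 0.07 in Spdef -/-. Only the shift is meaningful, since the level depends on the probes, and it was -1.24, that is 2.36-fold (two-sided exact permutation p = 0.1, which is the lowest that 3 against 3 arrays can give). With each of the other 2 Krt8 probe sets the shift was -1.23. For Krt13 minus Krt4 the values were -1.30 ± 0.14 (SD, n = 3) in Spdef +/+ and -0.71 ± 0.14 in Spdef -/-, a shift of 0.59 (two-sided exact permutation p = 0.1). With the Krt4 probe sets averaged the shift was 0.51. The dimmer probe sets gave log2 differences of 1.54 for Krt13 and 0.63 for Krt4, so the size of this shift depends on the probe sets. The Krt4 signals also lie near the brightest on the arrays, where a change may be harder to measure. Between the type I keratins of mucosa and of glands, Krt13 minus Krt18 moved by 2.64, a 6.23-fold shift (two-sided exact permutation p = 0.1). In these 3 comparisons every Spdef -/- array lay outside the range of the Spdef +/+ arrays, and a p of 0.1 cannot pass the threshold whatever the data. Adjusted over the 3 they stay at 0.1.

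**Figure D2:**
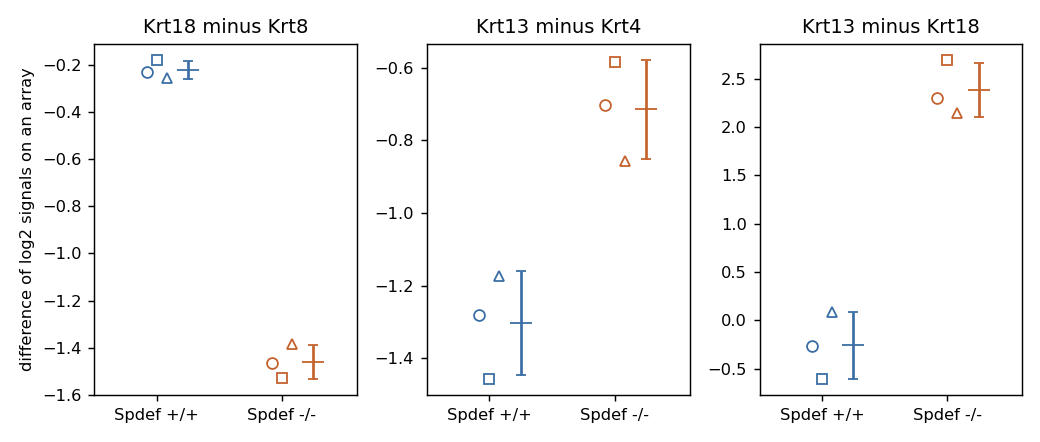
Difference of log2 signals between 2 keratin genes on each array, for the partners Krt18 and Krt8, the partners Krt13 and Krt4, and the type I keratins Krt13 and Krt18, with the mean and SD of 3 arrays beside the points (circle, square and triangle for replicates 1, 2 and 3). The genotypes do not overlap in any panel, with shifts of -1.24, 0.59 and 2.64, and each panel has its own vertical scale.

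Krt20 was measured by a single probe set. It read 11.96, 13.35 and 22.1 in Spdef +/+ and 46.8, 19.6 and 33.1 in Spdef -/-, with an Absent call on each array and overlapping genotypes. No fold is given, and the gene was not tested. Genes of intestinal epithelium in the lists of regulators and surface genes, picked out after their values were seen, gave no uniform picture. The transcription factors Cdx2 and Hnf4a, the brush border protein gene Vil1 and the cadherin gene Cdh17 were Absent on all 6 arrays, and the galectin gene Lgals4 was Present on 3 Spdef +/+ and 2 Spdef -/- arrays. Of 10 Merkel cell markers 7 were Absent on all Spdef +/+ arrays and 7 on all Spdef -/- arrays, among them Pou4f3 and Chga. The summed Merkel signal was 238 to 287 in Spdef +/+ and 335 to 526 in Spdef -/-, and the 1 tested marker, Sox2, which other epithelial cells also make, rose 2.08-fold (adjusted p = 0.0258). With Spdef +/+ replicate 2 or 3 left out that call was lost (adjusted p = 0.0705 and 0.0752).

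Deviations from the genotype mean were shared by several of the keratins. Replicate 3 of Spdef -/- was the lowest of its genotype in 6 of the 7 tested keratins, the exception being Krt18, and replicate 1 was the highest in 5. Without replicate 3 the log2 difference of Krt13 was 1.20 and that of Krt19 was 0.45. Replicate 3 of Spdef +/+ was the lowest of its genotype in 4 of the 7, among them Krt8 and Krt18, and without it the log2 difference of Krt18 was -1.68. The calls of Krt13, Krt18, Krt4 and Krt23 held without any 1 array, with log2 differences from 0.95 to 1.20, from -1.68 to -1.51, from 0.42 to 0.54 and from 0.73 to 1.06. Centring the arrays on the bacterial hybridization controls, chosen after the data were seen, left Krt13 and Krt18 called and ended the calls of Krt4 (log2 difference 0.37, adjusted p = 0.524), Krt19 (0.25, adjusted p = 0.713) and Krt23 (0.81, adjusted p = 0.0528).

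Because Spdef binds DNA, its preferred sites being known to hold a GGAT core, the starts of 3 of the called keratins and of Krt8, the uncalled partner of Krt18, are shown. The sequences run from 250 bases before to 50 bases after the annotated start, 5' to 3' on the gene's strand, from RefSeq (GRCm38.p6), which had such an entry for 6 of the 8 genes. They are Krt18 (chr15:102027966-102028265, plus strand), Krt8 (chr15:102004293-102004592, minus strand), the outer of 2 starts of Krt13 (chr11:100121517-100121816, minus strand) and Krt23 (chr11:99493071-99493370, minus strand). Capitals mark CCGGAT on either strand.
Krt18: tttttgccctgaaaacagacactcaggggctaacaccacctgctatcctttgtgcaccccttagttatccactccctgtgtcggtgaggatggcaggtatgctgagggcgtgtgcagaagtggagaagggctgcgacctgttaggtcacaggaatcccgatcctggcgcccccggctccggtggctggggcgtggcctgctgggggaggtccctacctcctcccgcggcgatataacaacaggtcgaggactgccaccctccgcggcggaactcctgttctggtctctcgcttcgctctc
Krt8: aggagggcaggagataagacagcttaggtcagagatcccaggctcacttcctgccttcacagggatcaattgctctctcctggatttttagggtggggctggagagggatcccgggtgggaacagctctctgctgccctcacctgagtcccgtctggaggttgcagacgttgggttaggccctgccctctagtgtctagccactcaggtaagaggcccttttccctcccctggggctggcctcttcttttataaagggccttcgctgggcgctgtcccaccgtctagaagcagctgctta
Krt13: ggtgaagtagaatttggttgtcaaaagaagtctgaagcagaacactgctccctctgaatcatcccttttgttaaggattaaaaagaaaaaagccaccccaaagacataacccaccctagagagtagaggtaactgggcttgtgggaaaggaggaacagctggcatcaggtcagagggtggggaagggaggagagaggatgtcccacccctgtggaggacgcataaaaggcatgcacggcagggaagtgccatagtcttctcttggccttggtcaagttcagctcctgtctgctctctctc
Krt23: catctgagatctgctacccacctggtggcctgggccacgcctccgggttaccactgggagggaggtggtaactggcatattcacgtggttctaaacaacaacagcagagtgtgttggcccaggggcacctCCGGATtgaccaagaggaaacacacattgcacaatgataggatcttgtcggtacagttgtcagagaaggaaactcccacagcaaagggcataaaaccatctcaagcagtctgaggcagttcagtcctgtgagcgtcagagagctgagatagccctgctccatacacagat
The letters CCGGAT were searched on both strands and occurred in 6.04% of 32851 promoters of the same length. Krt23 held 1 match, at position -120 from the start. The other start of Krt13 (chr11:100120528-100120827, minus strand) also held 1, at -107, and the windows of Krt18, Krt8, Krt7, Krt20 and the printed start of Krt13 held none. The related ETS letters CCGGAA, in 14.9% of promoters, were in none of these windows. The GGAT core alone was not counted. It does stand in each of the printed windows, so the lack of CCGGAT does not mean that the core is missing. A match is a description of letters and not of binding.

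By position, type I keratins lie together on chromosome 11 and type II keratins on chromosome 15, with Krt18, a type I gene, at the end of the latter beside Krt8. Krt8 and Krt18 are the last 2 of the 27 keratin genes annotated on chromosome 15, and they were the 2 of the 7 tested keratins with a negative difference. Krt13, Krt15 and Krt19 follow each other on chromosome 11. Krt15, a basal keratin, read 18134 ± 222 in Spdef +/+ and 18233 ± 864.3 in Spdef -/- (SD, n = 3, adjusted p = 0.951). These signals lie near the brightest on the arrays, where a change may be harder to measure, so Krt15 is not set against its neighbours. Krt23 lies next to Krt20, of which no change could be measured.

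**Figure D3:**
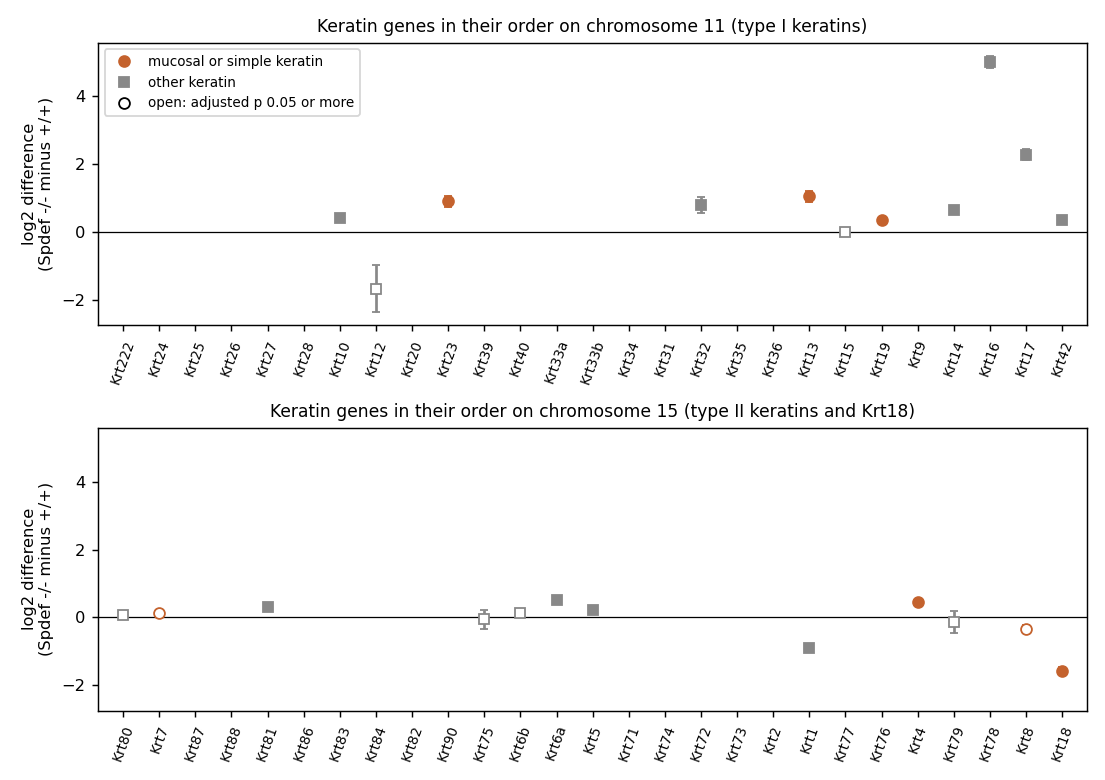
Log2 difference, Spdef -/- minus Spdef +/+, of each tested keratin gene in gene order on chromosomes 11 and 15, with its standard error; genes with no point were not tested. Krt18 at -1.58 is the lowest filled point, and Krt16 at 5.02 and Krt17 at 2.29 are the highest.

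Of 38 other keratin genes on the array 16 were tested, and 9 of these rose and 1 fell, with a median log2 difference of 0.25. That is 62.5% called, against 39.7% of all tested genes, 15.8% higher and 24.0% lower. The 9 include Krt42, which read 1382 in Spdef +/+ and 1759 in Spdef -/- but was not called Present on any Spdef -/- array. They also include the dim Krt32 (23.2 and 41.0), which met the filter only through its Present calls in Spdef -/-. The number that rose was 4 without Spdef +/+ replicate 1 or without Spdef -/- replicate 2, 5 without Spdef +/+ replicate 2 and 6 without any other array. With arrays centred on the bacterial controls 2 rose and 2 fell. Among 7 basal and wound keratins 5 rose and none fell, against 4 that rose without any 1 array and 2 with bacterial centring. Krt16, counted among these, met the filter only through its Present calls in Spdef -/-, so the filter favoured its rise. Induced in wounded and hyperproliferative epithelium and Present on 1 Spdef +/+ array, it went from 41.3 ± 6.60 to 1347 ± 253 (SD, n = 3), 32.5-fold (adjusted p = 3.88e-05). Krt17, known from the same setting, rose 4.87-fold and is the only keratin among the 153 probe sets of the authors' deposited table of changed genes, with a fold of 4.87. None of the probe sets of the 8 keratins is in that table, which required the lower bound of the fold to exceed 3. Of 5 tested epidermal and corneal keratins, Krt1, made above the basal layer of epidermis, fell 1.88-fold (adjusted p = 0.00123), and its partner Krt10 rose 1.34-fold (adjusted p = 0.023). The call of Krt10 was lost without Spdef +/+ replicate 1 (adjusted p = 0.0736) or 2 (0.0713) and without Spdef -/- replicate 1 (0.0713) or 2 (0.0688). Krt12 missed the threshold (log2 difference -1.66, adjusted p = 0.103).

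Of 13 tested genes whose proteins anchor keratin filaments or bind keratins, 7 rose and 0 fell, with a median log2 difference of 0.37. That is 53.8% called, against 39.7% of all tested genes, 15.8% higher and 24.0% lower. Without Spdef +/+ replicate 1 the count higher was 5. It was 6 without Spdef +/+ replicate 2 or Spdef -/- replicate 1, and 7 without any other array. Without Spdef -/- replicate 3, 1 fell. Sfn, the epithelial 14-3-3 protein that binds keratins, went from 816 ± 108 to 1938 ± 65.9 (SD, n = 3), 2.39-fold (adjusted p = 0.000594). The desmosomal plaque genes Dsp, Jup, Pkp1 and Pkp3 rose between 1.27-fold and 1.39-fold, and so did Evpl, which links keratins to the cornified envelope. The plaque gene Pkp2 was not called (log2 difference -0.09, adjusted p = 0.626), nor were the linker genes Eppk1 (-0.27) and Dst (-0.32), whose Spdef -/- arrays lay below the Spdef +/+ arrays. Plec, which ties keratins to hemidesmosomes and other structures, had signals of 5233 ± 329 and 5324 ± 267 (adjusted p = 0.834). With arrays centred on the bacterial controls 1 member rose. Of 6 epidermal markers 3 were tested, of which Krt10 rose and Krt1 fell. Krtdap was Absent on all Spdef +/+ arrays and was tested only through its Present calls in Spdef -/-, at 8.76 ± 8.32 and 73.1 ± 29.2 (SD, n = 3), and Flg, the filaggrin gene, was Absent on all 6 arrays. Their summed signal was 639 to 689 in Spdef +/+ and 705 to 776 in Spdef -/-, and their part was not tested.

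Transcription factors of epithelial differentiation were called in 6 of 17 tested members, 3 higher and 3 lower, which is 35.3% against 39.7% of all tested genes, with a median log2 difference of 0.03. Grhl3, a regulator of barrier formation, went from 714 ± 141 to 1561 ± 139 (SD, n = 3), 2.21-fold (adjusted p = 0.00237), and Tfap2a, an AP-2 factor of surface epithelia, fell 1.39-fold (adjusted p = 0.0089). Tfap2a missed the threshold when its probe sets were averaged (adjusted p = 0.212) and with bacterial centring (adjusted p = 0.228). The number that fell was 2 without Spdef +/+ replicate 2 or Spdef -/- replicate 2 and 1 without any other array. Trp63, the master regulator of stratified epithelia, was not called, at 2507 ± 42.1 and 2539 ± 276.

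Surface and junction genes of simple epithelium, where Krt18 is typical, moved both ways, with 3 of 11 tested members higher, 3 lower and a median log2 difference of 0.13. That is 54.5% called, against 39.7% of all tested genes, 15.8% higher and 24.0% lower. The tight junction genes moved both ways, as Cldn7 rose 1.41-fold (adjusted p = 0.00741) and Cldn3 fell 1.38-fold (adjusted p = 0.00555). Lgals4, a galectin of gut-type epithelium, Present on 2 Spdef -/- arrays, fell 1.90-fold (adjusted p = 0.00543). Epcam, a general marker of simple epithelium, had 3615 ± 279.5 and 3337 ± 188 (SD, n = 3) and was not called (adjusted p = 0.359). The number that rose was 1 without Spdef +/+ replicate 1 or 2 or Spdef -/- replicate 1 or 2. With bacterial centring 0 of these rose and 1 fell, and of the transcription factors 1 rose and 0 fell. Some markers of other tissues were called as well, against 15.8% of all tested genes higher and 24.0% lower. Of 7 stromal markers 4 fell, with summed signals of 29747 to 45152 in Spdef +/+ and 20336 to 22424 in Spdef -/-. Of 5 tested immune cell markers 3 rose, with sums of 1973 to 2963 and 6115 to 11693. The 3 were Ptprc, S100a8 and S100a9, while Lyz2 (log2 difference -0.07) and Csf1r (0.27) were not called. S100a8 (mean 1927) and S100a9 (mean 3456) made up most of the Spdef -/- sum, so it does not stand for immune markers in general. Of 5 corneal epithelial markers 1, Clu, rose, and the other 4 had lower means in Spdef -/- but were not called. The median log2 difference of the 5 was -0.58, with summed signals of 21778 to 26735 in Spdef +/+ and 17361 to 20816.5 in Spdef -/-. Of 4 tested endothelial markers 1 fell. Of 2 tested melanocyte markers 1 fell, as did 1 of 2 tested markers of lacrimal and meibomian glands. The other gland marker, Scd1, read 3573 on Spdef +/+ replicate 2, against 149 to 283 on the other arrays. Krt12 was also highest on that array (5367). The 1 tested muscle marker was not called. The part of these tissues in the keratin changes was not tested.

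**Figure D4:**
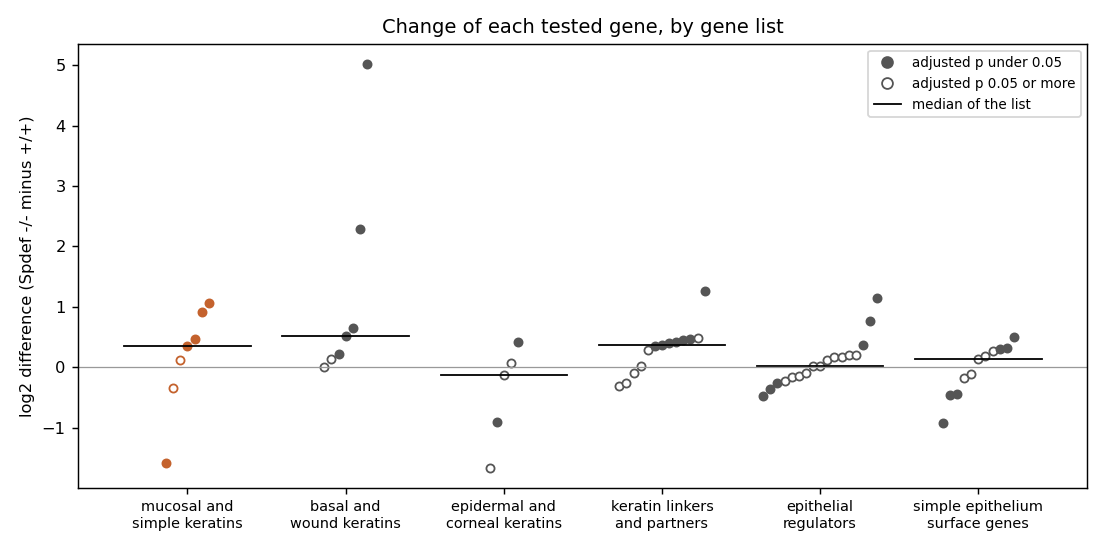
Log2 difference, Spdef -/- minus Spdef +/+, of each tested gene in 6 gene lists, filled where the adjusted p was under 0.05, with the median of each list as a line. The mucosal and simple keratins run from -1.58 for Krt18 to 1.06 for Krt13, with a median of 0.35.

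The genes whose log2 profiles over the 6 arrays, centred on their own mean, differed least from those of Krt18 and Krt13 were listed as a description, since most of each profile is the difference of the genotypes. For Krt18 they were Ptpru, Ppp1r1b, Camk2n1, Mansc1 and Agr2, with root mean square differences of 0.07 to 0.09 on the log2 scale. Ptpru, a receptor tyrosine phosphatase gene, read 1039.5, 1228 and 1002 in Spdef +/+ and 430.1, 344 and 352 in Spdef -/-. Agr2, a disulfide isomerase of mucous cells, fell 3.30-fold, a closeness to Krt18 that its choice by likeness fixes. For Krt13 they were Armc6, Elf5, Areg, Ttc22 and Cdkn1a, with root mean square differences of 0.06 to 0.09. Elf5, an epithelial ETS factor gene, read 307, 272 and 299 in Spdef +/+ and 667, 712 and 507 in Spdef -/-, an order of arrays that its choice by likeness to Krt13 fixes. Areg, a ligand of the EGF receptor, rose 2.12-fold, and Cdkn1a, a cell cycle inhibitor gene, 2.30-fold.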

How the data were processed

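The arrays were compared from the authors' deposited signal intensity values, dChip model-based values per probe set on a linear scale, normalized between arrays by a method not given in the sources used here. Detection calls, a value of the other kind in the deposited table, were Present, Marginal or Absent. The second deposited table of intensity values was identical. The authors' deposited comparison gives score values (signed folds) and unadjusted p-values, filtered, per the file headers, on a fold bound over 3 and a p of at most 0.01.

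Symbols came from the RefSeq gene table of GRCm38.p6, by gene ID, by the 1 of several IDs found there, or by accession (36909 of 45101 probe sets). Signals were floored at 1 before taking log2. Tests used non-control probe sets with a single symbol that were called Present on 3 or more of the 6 arrays, and the brightest represented its gene. limma 3.58.1 (R 4.3.3) compared the genotypes (lmFit, eBayes, 2-sided, Benjamini-Hochberg over 11899 genes, threshold 0.05), also over 21727 probe sets singly, and the procedure was tested on simulated data. Measures of 3 against 3 arrays used exact permutation tests (scipy 1.17.1). The median residual SD of log2 signals was 0.139, and precision is limited by how few arrays there are. Replicates are separate pools of mice per the labels.

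The 8 keratins and the lists were chosen with earlier results of these data known. Beside the 8, the genes named are the called member of each keratin, linker, regulator and surface gene list with the smallest p in each direction, and the 5 genes nearest in profile to the keratins with the largest rise and fall. Other list members were named after their values were seen. Alternatives changed the filter, floor, scaling, model, replicate block and arrays used.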

Additional observations from a re-analysis of the deposited data

How the results depend on the processing

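Krt13 and Krt18 kept their direction and call under the 18 alternatives, with log2 differences from 0.95 to 1.20 and from -1.68 to -1.51, and Krt7 stayed uncalled. Krt4 and Krt23 lost their calls only with arrays centred on bacterial controls, an alternative chosen after the data were seen. Krt19 lost its call in 10 of the 18 (adjusted p up to 0.713) and Krt8 gained one in 8 (adjusted p from 0.0147 to 0.0493). Between 4 and 6 members were called, except 2 with arrays centred on bacterial controls, where 2 member probe sets, 571 genes higher and 1187 lower were called, against 1878 and 2850. That centring moved the median log2 difference of all tested genes from -0.06 to -0.16. Without 1 array, 1277 to 1825 genes were higher and 1850 to 2734 lower, the lowest without Spdef +/+ replicate 1. Krt15 changed sign with bacterial centring (-0.092) and among the fits without 1 array (-0.027 to 0.042). The shift of Krt18 against Krt8 ran from -1.28 to -1.19, that of Krt13 against Krt4 from 0.51 to 0.66 and that of Krt13 against Krt18 from 2.47 to 2.81. The replicate numbers do not pair the arrays, as deviations of same-numbered arrays correlated at -0.09 to -0.01 across genes. With the replicate block 1473 genes were higher and 2200 lower, 4 members were called, Krt19 was not (adjusted p = 0.0822), and the pair shifts were the same, with an exact permutation p = 0.25, the smallest that design allows.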
